A study of Mus musculus and Bos taurus with 6 samples.

Results

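The miRNA of the miR-146 family, miR-146a and miR-146b, were followed through 6 small RNA libraries of the lactating mammary gland. The members were all lines of the quantification files that carry a mouse or a bovine name of miR-146a or miR-146b, with both arms of each hairpin. The rule covers 4 mature miRNA, and 3 of them had a line in every library, among 1750 lines listed for mouse and 1539 listed for bovine. The member without a line in the data used here was miR-146a-3p, for which no level is given.

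The 2 mouse libraries were made from total RNA of whole abdominal glands of primiparous mice of the strain FVB/N on day 12 of lactation, and the study collected glands from 2 mice with the lymph node taken out. The 2 AGO2 libraries came from glands of the same strain and day, after co-immunoprecipitation with a monoclonal antibody to Argonaute 2, the protein that holds the miRNA in the RISC. The 2 bovine libraries came from biopsies of multiparous Holstein cows at mid-lactation, on a low forage diet (forage to concentrate 46:54), and each was a pool of 2 cows, 4 in all. Mouse and AGO2 RNA were isolated with 1 kit and bovine RNA with another, so species, kit and pooling cannot be told apart. The study made the AGO2 libraries from 2 animals. The sources used here do not say whether the mouse libraries came from separate animals, or which AGO2 library shares an animal with which mouse library, so the spread between the mouse libraries may be partly technical.

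A miRNA hairpin is cut into a 5p and a 3p arm. One arm, the guide, is usually kept by an Argonaute protein, and the other, the passenger, is mostly lost. The seed, near the 5′ end of the guide, is the stretch that pairs with target mRNA. miR-146a and miR-146b come from separate genes, share 1 seed, and are known as brakes on innate immune signalling. NF-kB raises transcription of miR-146a, and both miRNA repress IRAK1 and TRAF6, which carry signals from Toll-like receptors to NF-kB. They are well known in leukocytes and also occur in epithelia.

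The mature sequences are shown because the 5p members differ at so few bases that their counts depend on single positions near the 3′ end. Capitals mark the seed, bases 2 to 8. The mouse and bovine lines come from the quantification files, and miR-146a-3p from RefSeq.
mmu-miR-146a-5p: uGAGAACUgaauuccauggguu
mmu-miR-146b-5p: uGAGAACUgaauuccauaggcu
bta-miR-146a: uGAGAACUgaauuccauagguugu
bta-miR-146b: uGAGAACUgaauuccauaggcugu
mmu-miR-146b-3p: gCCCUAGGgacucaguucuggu
mmu-miR-146a-3p: cCUGUGAAauucaguucuucag

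All 4 lines of the 5p arm held the same seed, and each 3p arm had a seed of its own. Counted from 1 at the 5′ end, mouse miR-146a-5p and miR-146b-5p differed by G18A and U21C. The bovine lines of the 5p arms were 24 nt long, against 22 nt in mouse, and differed from each other only by U21C. Over the 22 shared bases, the bovine miR-146b line was the same as that of mouse, and the bovine miR-146a line differed from that of mouse by G18A. A read that ends before base 18 in mouse, or before base 21 in bovine, therefore fits both members. How such reads were counted is not given in the sources used here. The 3p arm in bovine was counted under the mouse name and the mouse sequence.

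The 2 mouse genes are placed here by RefSeq and GENCODE on GRCm38, the build of the study. Mir146, the gene of miR-146a, lies on the minus strand at chr11:43374397-43374461 and overlaps no other annotated gene. Mir146b lies on the plus strand at chr19:46342762-46342870, within an intron of Mfsd13a, a protein-coding gene on the same strand. The RefSeq hairpins follow, with both arms in capitals.
Mir146: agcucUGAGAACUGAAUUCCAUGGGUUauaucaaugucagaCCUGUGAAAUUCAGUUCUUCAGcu
Mir146b: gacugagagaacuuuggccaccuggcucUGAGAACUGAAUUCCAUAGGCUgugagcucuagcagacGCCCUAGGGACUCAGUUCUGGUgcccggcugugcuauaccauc

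Depth, as the total of all counts, was 9299807 and 8391916 for mouse samples 1 and 2, 3909166 and 5041406 for AGO2 and 9402483 and 10613807 for bovine. Levels are given as RPM, the counts scaled to a library total of 1000000, on which a count of 0 allows up to 0.283 to 0.767 RPM, taken as 3 counts. The ranges given with single RPM values or shares are 95% Wilson intervals and, like this limit, cover counting error only. Epithelial markers were present in every library, at a sum of 151309 to 462892 RPM over the 7 miRNA of a list that holds the miR-200 family, and no marker of that list was at 0. All values within a library are counts of reads, and how evenly different miRNA were captured was not tested.

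miR-146b-5p, the guide arm of miR-146b, was among the most abundant miRNA of the mouse gland. It had 85224 RPM (85045 to 85404) in mouse sample 1 and 101226 RPM (101022 to 101430) in mouse sample 2, and stood in place 2 of all lines in both. In the AGO2-miRNome it had 68553 RPM in sample 1 and 42892 RPM in sample 2, in places 3 and 6. In the bovine gland it had 369 RPM (357 to 381) in sample 1 and 867 RPM (850 to 885) in sample 2, in places 119 and 84. The libraries of the 3 groups did not overlap, in the order mouse, AGO2, bovine. For levels, here and below, how many of all miRNA separate in this way between groups was not counted.

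miR-146a-5p, the guide arm of miR-146a, lay between 382 and 1331 RPM in all 6 libraries. It had 787 RPM (769 to 805) and 1331 RPM (1307 to 1356) in mouse, and 609 and 382 RPM in AGO2. It had 880 RPM (861 to 899) and 931 RPM (913 to 950) in bovine, so that both bovine libraries lay between the mouse libraries. Its place among all lines was 81 and 66 in mouse, 94 and 102 in AGO2 and 86 and 80 in bovine. The AGO2 libraries were below all 4 others.

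miR-146b-3p, the passenger arm of miR-146b, had 639 and 331 RPM in mouse and 743 and 477 RPM in AGO2, so these groups overlapped. In bovine it had 8.19 RPM (6.55 to 10.2) and 11.4 RPM (9.54 to 13.6), from 77 and 121 reads. Both bovine libraries were far below the mouse libraries, and above the limit that a count of 0 allows.

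**Figure D1:**
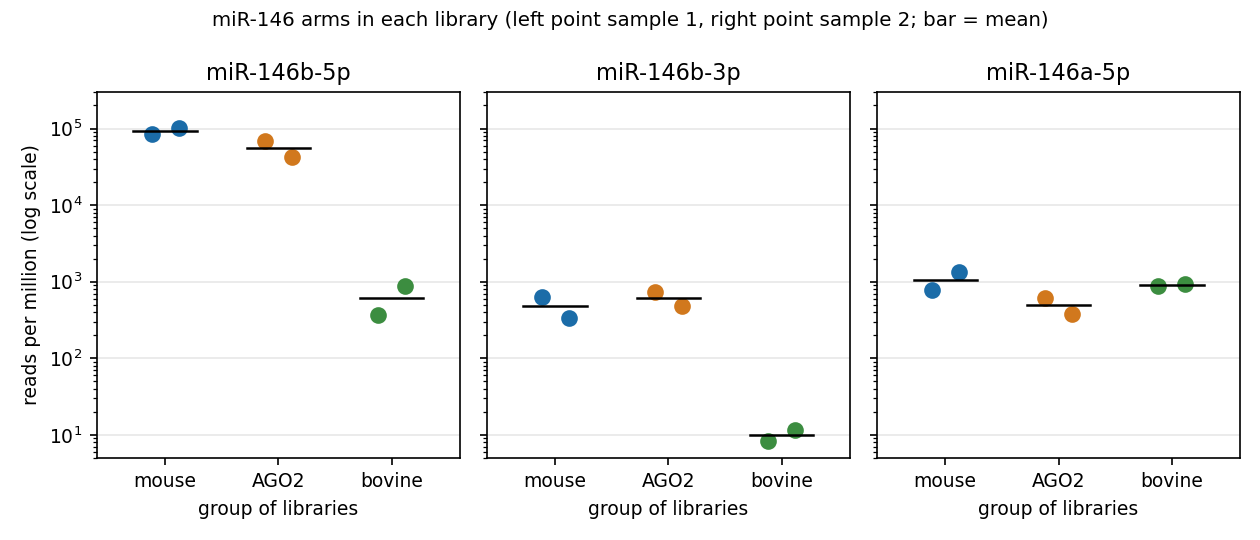
Level of each miR-146 arm in the 6 libraries, in RPM on a log axis, with points for samples 1 and 2 of each group and a bar for their mean. miR-146b-5p had a mean of 93225 RPM in mouse and 618 RPM in bovine, while the bovine points of miR-146a-5p, at 880 and 931 RPM, lie between its mouse points.

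The first comparison was that of species, for which mouse and bovine lines were matched by name and arm. Of 275 matched miRNA, 147 reached 100 RPM in some library of the 4 and were tested with edgeR's quasi-likelihood test. At an adjusted p under 0.05 the test called 83 of them, 56.5%, with 27.9% higher and 28.6% lower in bovine. All 3 measured members passed the filter, and 2 of them, both arms of miR-146b, were called lower. DESeq2 called 60.5% of the same miRNA, both arms of miR-146b among them. The log2 fold change over all miRNA tested had a median of 0.07.

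miR-146b-5p fell from 93225 ± 11315 RPM (SD, n = 2) in mouse to 618 ± 352 RPM (SD, n = 2) in bovine. The log2 fold change was -7.48 (SE 0.64, adjusted p = 0.000247, edgeR's quasi-likelihood test), a level 179-fold lower. This was the lowest log2 fold change of the 147 miRNA tested. The next lowest were miR-187-3p at -7.33, miR-144-3p, an erythroid miRNA, at -6.51, miR-378c-5p at -6.28 and miR-34c-5p at -5.91. All 4 of these passed the filter only through the mouse libraries. At their bovine levels they were tested only because they were higher in mouse, whereas miR-146b-5p passed in both species. miR-187-3p rested on few reads in bovine, at 0.319 and 2.26 RPM. The most abundant of these others in mouse was miR-378c-5p, at 4942 and 4658 RPM.

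miR-146b-3p fell with the guide arm of its hairpin, from 485 ± 217 RPM (SD, n = 2) in mouse to 9.79 ± 2.27 RPM (SD, n = 2) in bovine. The log2 fold change was -5.88 (SE 0.56, adjusted p = 0.000247, edgeR's quasi-likelihood test), or 58.9-fold, the sixth lowest. The 3p arm passed the filter only through the mouse libraries. At its bovine level it was tested only because it was higher in mouse.

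miR-146a-5p was not called between the species, with 906 ± 36.1 RPM (SD, n = 2) for bovine against 1059 ± 385 RPM (SD, n = 2) for mouse. The log2 fold change was -0.52 (SE 0.41, 95% interval -1.49 to 0.45, adjusted p = 0.313, edgeR's quasi-likelihood test). The result rested on which mouse library was used. Without mouse sample 1 the log2 fold change was -0.82 and passed the test (adjusted p = 0.00487, edgeR), and without mouse sample 2 it was 0.02 (adjusted p = 0.944, edgeR).

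**Figure D2:**
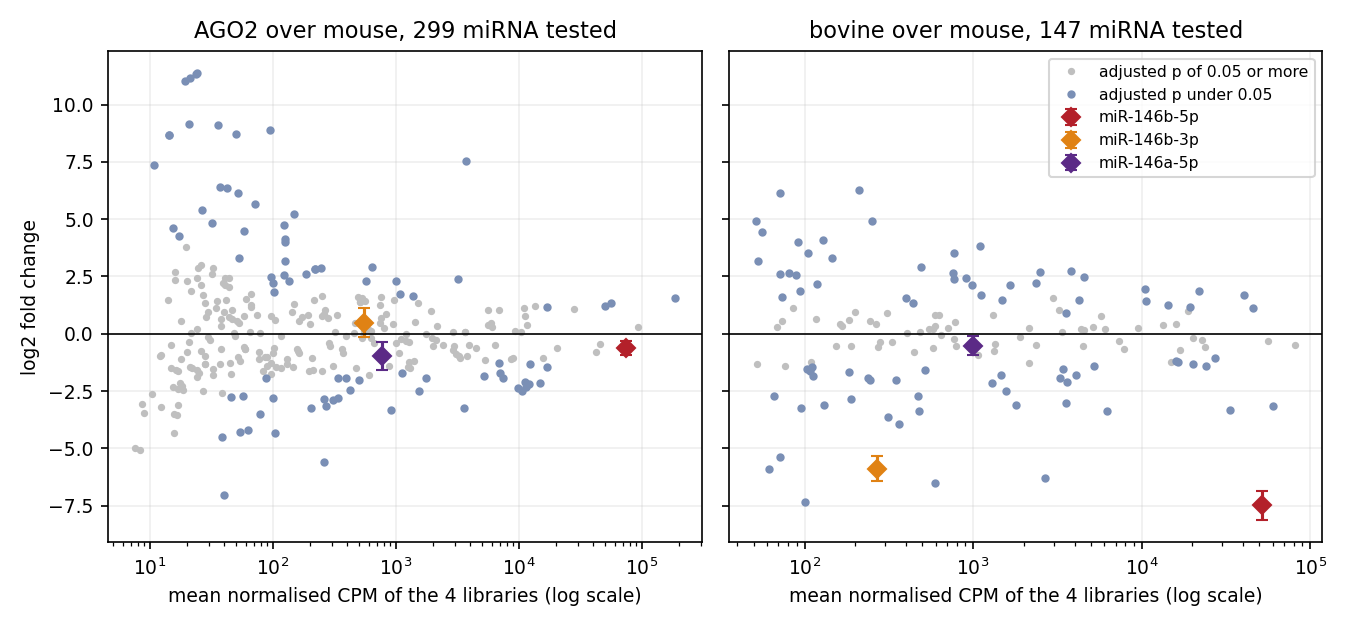
Log2 fold change of AGO2 over mouse (left) and of bovine over mouse (right) against the mean normalised CPM of the 4 libraries compared, on a log axis, with 1 point per miRNA tested and members as diamonds with their SE. miR-146b-5p is the lowest point on the right, at -7.48, and lies close to 0 on the left, at -0.61.

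Since reads that end early fit both 5p members, the 2 lines were also summed. The sum removes the effect of a split only if no read was entered on both lines. The lines of miR-199a-3p and miR-199b-3p held the same values in every mouse and AGO2 library, so entry on both lines is possible. Whether it occurred for miR-146 was not tested. Together they made up 8.60% and 10.3% of all counts in mouse, 6.92% and 4.33% in AGO2, and 0.125% and 0.180% in bovine. The sum fell in bovine, with a log2 fold change of -6.18 (SE 0.47, adjusted p = 4.88e-07, edgeR's quasi-likelihood test), or 72.6-fold. Over all lines with the same seed, the family stood in place 4 and 2 of the seeds in mouse, 3 and 6 in AGO2, and 49 and 42 in bovine.

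The make-up of the 5p pool differed with the species. miR-146b-5p made up 99.1% and 98.7% of the 5p counts in mouse and 99.1% in each AGO2 library. In bovine it made up 29.5% (28.7 to 30.4) in sample 1 and 48.2% (47.5 to 48.9) in sample 2. miR-146a-5p thus had more counts in both bovine libraries. The bovine 5p lines differ at 1 base and the mouse lines at 2, and the mismatches allowed in counting are not given. How this bears on the shares was not tested. As a ratio, miR-146b-5p was 108 and 76.0 times miR-146a-5p in mouse, 113 and 112 times in AGO2, and 0.419 and 0.931 times in bovine.

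The mean log2 ratio of miR-146b-5p to miR-146a-5p was -0.68 ± 0.82 (SD, n = 2) for bovine against 6.50 ± 0.36 (SD, n = 2) for mouse, a difference of -7.18. The groups did not overlap, and the exact permutation test over libraries gave p = 0.333 (two-sided), the smallest that 2 against 2 libraries can give. AGO2 libraries, at 6.81 on the log2 scale, were above both mouse libraries by a mean difference of 0.31 (exact permutation test, p = 0.333, again the smallest possible). That difference was 0.56 without mouse sample 1 and 0.05 without mouse sample 2.

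**Figure D3:**
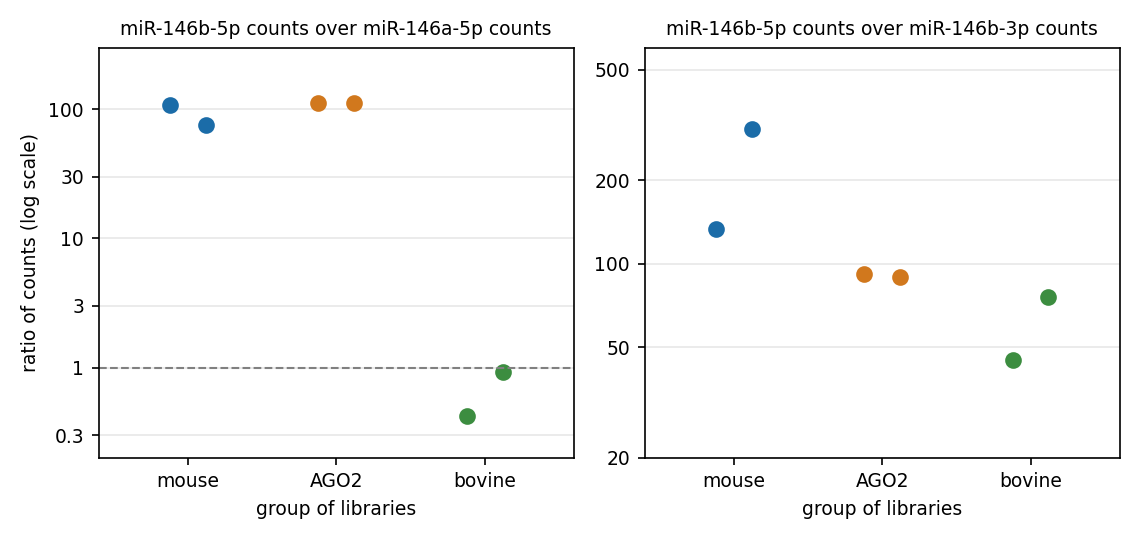
Ratio of counts within each library on log axes, with points for samples 1 and 2 of each group, for miR-146b-5p over miR-146a-5p (left; the dashed line marks equal counts) and for the 5p over the 3p arm of miR-146b (right). On the left mouse and AGO2 lie between 76.0 and 113 and bovine at 0.419 and 0.931, and on the right mouse is highest at 133 and 305.

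The levels of miR-146b-5p in the bovine libraries were themselves far apart. Among the 172 bovine miRNA with at least 100 RPM in a library, the difference between samples 1 and 2 had an SD of 0.31 on the log2 scale. For miR-146b-5p it was 1.23, or 2.35-fold, the widest of the 172. The only other miRNA past 2-fold was let-7d-3p, named after its values were seen, with 62.0 and 133 RPM. miR-146a-5p differed by 0.08 between the same libraries, place 134 of 172 by size.

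The difference of miR-146b-5p between the bovine pools had no replicate, since each pool is 1 library of 2 cows. Between the mouse libraries miR-146b-5p differed by 0.25 on the log2 scale, miR-146a-5p by 0.76 and miR-146b-3p by -0.95, each as sample 2 minus sample 1. These were ordinary values there, since the SD over 171 miRNA was 0.93. In AGO2 the 3 members moved by nearly the same amount, -0.67 for miR-146a-5p, -0.68 for miR-146b-5p and -0.64 for miR-146b-3p. These too were ordinary values, since the SD over 167 miRNA was 0.88. Leaving out either bovine library kept the fall of miR-146b-5p between mouse and bovine, at -8.38 to -6.87 on the log2 scale over all alternatives tried.

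**Figure D4:**
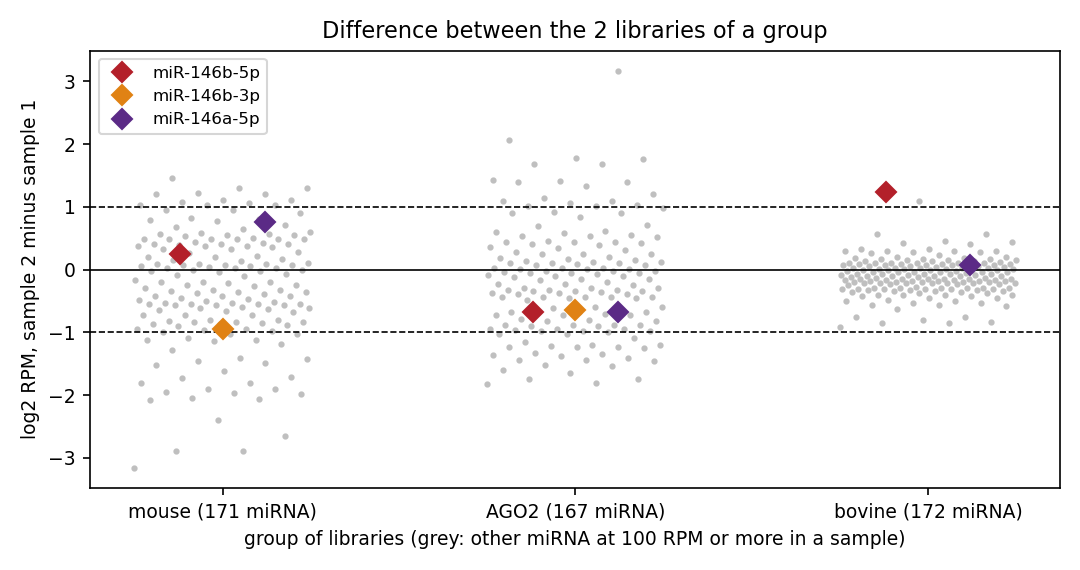
Difference of log2 RPM between samples 2 and 1 of each group, with grey points for other miRNA at 100 RPM or more in a sample, diamonds for the members and dashed lines at a 2-fold difference. miR-146b-5p stands at the upper edge in bovine, at 1.23, while the members in AGO2 lie together between -0.68 and -0.64. miR-146b-3p stayed under 100 RPM in bovine and is not drawn there.

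The second comparison, AGO2 against mouse, asked whether the members had higher or lower scaled counts after AGO2 co-immunoprecipitation than in the gland. Such counts are relative to the other miRNA of a library and do not give amounts in the AGO2-RISC. The 299 miRNA whose highest count passed the threshold of the study's methods were tested, and edgeR's quasi-likelihood test called 83, 27.8%, with 15.4% higher and 12.4% lower in AGO2. All 3 measured members were tested and 0 of them were called by edgeR or by DESeq2, which called 39.1% of the 299, and 0 had an unadjusted p under 0.05 with edgeR. The median log2 fold change over all 299 was -0.12.

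miR-146b-5p had 55723 ± 18145 RPM (SD, n = 2) in AGO2, and its log2 fold change was -0.61 (SE 0.31, 95% interval -1.26 to 0.04, adjusted p = 0.137, edgeR's quasi-likelihood test). Both AGO2 libraries were below both mouse libraries, and how many of all miRNA tested were so was not counted. miR-146a-5p had 495 ± 160 RPM (SD, n = 2) in AGO2 and a log2 fold change of -0.97 (SE 0.62, 95% interval -2.26 to 0.33, adjusted p = 0.236, edgeR). Its AGO2 libraries were likewise below both mouse libraries, but the interval spans values from a fall of more than 2 on the log2 scale to a small rise. miR-146b-3p had 610 ± 188 RPM (SD, n = 2) in AGO2, with a log2 fold change of 0.49 (SE 0.63, 95% interval -0.83 to 1.80, adjusted p = 0.550, edgeR). None of the members passed the test between gland and AGO2-RISC in this comparison, which treats the 4 libraries as separate. The study sampled 2 mice in all, and a fit with the sample number as a block, added after the data were seen, called miR-146b-5p lower in AGO2.

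Within the hairpin of miR-146b, the 3p arm made up 0.744% and 0.326% of the counts of both arms in mouse. It made up 1.07% and 1.10% in AGO2 and 2.17% (1.74 to 2.71) and 1.30% (1.09 to 1.55) in bovine. The 5p arm was thus the major arm in all 6 libraries, and the mouse libraries held the smallest shares of the 3p arm.

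On the log2 scale the 5p to 3p ratio of miR-146b was 7.66 ± 0.84 (SD, n = 2) in mouse, 6.51 ± 0.03 (SD, n = 2) in AGO2 and 5.87 ± 0.54 (SD, n = 2) in bovine. The differences from mouse were -1.15 for AGO2 and -1.79 for bovine, with no overlap and p = 0.333 for each, the smallest that the exact permutation test can give here. The size rested on the mouse libraries, since without mouse sample 1 the differences were -1.75 for AGO2 and -2.38 for bovine, and without mouse sample 2 they were -0.55 and -1.19. Other hairpins moved as well. Of 69 hairpins whose passenger arm passed the same count threshold, 57 (82.6%) did not overlap between AGO2 and mouse, and the passenger to guide ratio was raised in 43, with a median change of 1.26. miR-146b, at 1.15, stood in place 36 of the 69, near the middle. Of 21 hairpins that could be compared between bovine and mouse, 17 (81.0%) did not overlap, the median change was 0.90, and miR-146b, at 1.79, stood in place 7. These 2 comparisons share the mouse libraries. In both, the passenger was the arm with fewer counts in mouse, and it could pass the filter through AGO2 or bovine alone. These rules favour a raised passenger to guide ratio, so the number raised, the medians and the places of miR-146b rest partly on them.

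The miRNA most like each guide arm were sought among the 154 matched miRNA that reached 100 RPM in any of the 6 libraries. The measure was the distance between log2(RPM + 1) values, centred on their mean over the 6 libraries. For miR-146b-5p the nearest were miR-378c-5p, at a distance of 1.75, miR-187-3p at 1.96, and its own 3p arm at 2.19. miR-345-5p followed at 3.19 and miR-144-3p at 3.22, against a median of 8.92 over all 154. Unlike miR-146b-5p, both were higher in AGO2 than in mouse, miR-144-3p at 4767 and 5361 RPM against 1105 and 1035 RPM. miR-345-5p reached 100 RPM only in AGO2 and had 0.744 and 0.660 RPM in bovine. miR-378c-5p had 4942 and 4658 RPM in mouse, 3834 and 2388 RPM in AGO2 and 73.2 and 76.8 RPM in bovine. Like miR-146b-5p it was highest in mouse and lowest in bovine, but its bovine libraries lay close together. miR-146a-5p, with the same seed, was only in place 66 at 8.52.

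For miR-146a-5p the nearest was miR-143-3p, a miRNA abundant in smooth muscle and stroma, at a distance of 0.66. It had 49139 and 63991 RPM in mouse, 29362 and 29602 RPM in AGO2 and 63041 and 48791 RPM in bovine, lowest in AGO2 like miR-146a-5p. The others were miR-140-5p at 0.93, miR-497-5p, of the miR-15 family, at 0.95, miR-17-3p at 1.03 and miR-148b-3p at 1.07, against a median of 2.84. miR-146b-5p was in place 153 of 154 and its 3p arm in place 149.

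The wider setting was a list of miRNA tied to NF-kB and innate signalling, of which 26 lines were listed in mouse, and which shares miR-155-5p and miR-223-3p with the leukocyte markers given last. In bovine against mouse 7 of them were tested, 2 were called higher and 5 lower, where 56.5% of all miRNA tested were called. miR-21a-5p, at 5913 and 12815 RPM in mouse, was not among the 7. Its bovine line is named miR-21-5p and was not matched by name. The log2 fold changes of the 7 ran in both directions, with a median of -1.68 beside 0.07 over all miRNA. miR-155-5p, like miR-146a a target of NF-kB but one that strengthens inflammatory signalling, rose from 30.5 and 46.1 RPM to 186 and 236 RPM (log2 fold change 2.18, SE 0.47, adjusted p = 0.00640, edgeR). It passed the filter only through bovine, and miR-187-3p only through mouse. At its level in the other species, each had to differ to be tested. miR-125b-5p rose by 2.69. miR-181a-5p, the most abundant of the list, fell from 53482 and 56807 RPM to 7124 and 6195 RPM (log2 fold change -3.34, SE 0.32, adjusted p = 0.000247, edgeR). The others that fell were miR-181b-5p, miR-187-3p, let-7i-5p and miR-223-3p, a myeloid miRNA.

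In AGO2 against mouse 14 miRNA of the list were tested, and 3 were called, beside 27.8% of all miRNA tested. let-7i-3p rose by 3.32 on the log2 scale, while let-7i-5p, the other arm of its hairpin, fell by 2.34, and miR-181b-5p fell by 1.28 (adjusted p = 0.0496, edgeR). let-7i-3p passed the filter only through AGO2, with 42.5 and 138 RPM there and 10.5 and 9.89 RPM in mouse, so it had to be high in AGO2 to be tested. The median over the list was 0.07, beside -0.12 over all miRNA.

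Markers of other cells are given here because miR-146 occurs in leukocytes as well as in epithelium, and in tissue fewer cells of a type and less RNA per cell cannot be told apart. The 5 leukocyte miRNA of a marker list, miR-142-5p, miR-142-3p, miR-150-5p, miR-155-5p and miR-223-3p, summed to 1263 and 2123 RPM in mouse, 2351 and 2971 RPM in AGO2 and 2553 and 3285 RPM in bovine. None was at 0 in any library. In bovine 2 of the 5 were higher (miR-150-5p and miR-155-5p) and 2 lower (miR-142-3p and miR-223-3p), beside 56.5% called of all miRNA tested. In AGO2 0 of 5 were called by edgeR, beside 27.8% of all. miR-155-5p passed the bovine filter only through bovine. Without miR-150-5p, which had 250 and 260 RPM in mouse and 1347 and 2007 RPM in bovine, the sums were 1013 and 1862 RPM in mouse and 1206 and 1278 RPM in bovine, and overlapped.

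The 7 epithelial miRNA summed to 247591 and 274736 RPM in mouse, 436212 and 462892 RPM in AGO2 and 151309 and 154394 RPM in bovine. The list holds miR-148a-3p, which the study lists for muscle and liver as well. miR-148a-3p had 87788 and 85990 RPM in mouse, 98175 and 94608 RPM in AGO2 and 73702 and 74936 RPM in bovine. In bovine 4 of the 7 were lower and miR-205-5p, a basal epithelial miRNA, was higher, beside 56.5% called of all. In AGO2 2 were higher (miR-200a-3p and miR-141-3p) and 2 lower (miR-200b-3p and miR-200c-3p), beside 27.8% called of all. Erythroid miRNA, the list of miR-144-3p, summed to 13343 and 6504 RPM in mouse, 32468 and 15527 RPM in AGO2 and 1709 and 1098 RPM in bovine. Endothelial miRNA (2 listed) summed to 24194 and 34265 RPM in mouse and 62356 and 55972 RPM in bovine, and stromal miRNA (5 listed) to 54443 and 71185 RPM in mouse and 78041 and 63692 RPM in bovine. None of these lists had a marker at 0. The endothelial sum was thus higher and the epithelial and erythroid sums lower in both bovine libraries than in the mouse libraries. The leukocyte sum was higher only with miR-150-5p. Of 2 erythroid miRNA tested in bovine 1 was called lower, miR-144-3p, which passed the filter only through mouse. Of 4 stromal miRNA tested 0 were called, beside 56.5% of all. No endothelial miRNA was tested, since the mouse and bovine names differ. The part of any of these cells in the fall of miR-146b was not tested.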

How the data were processed

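Per the labels and the study's methods, poly(A)-tailed small RNA was sequenced, and after removal of poly-A and selection of sequences between 17 and 28 nt the authors ran the quantifier of miRDeep2, against precursors of miRBase 20 joined with those predicted at a score above 0. The deposited values used are raw counts per mature miRNA, and the score in the deposited list of predictions is that of miRDeep2. A normalised column beside the counts was not used. The mismatches allowed and the treatment of reads shared between precursors are not given in the sources used here. The builds named are GRCm38 and UMD3.1.

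RPM were taken over the sum of counts. Counts were tested with edgeR 4.0.16 (R 4.3.3, TMM on library totals, quasi-likelihood F test, Benjamini-Hochberg adjustment), at an adjusted p under 0.05, on miRNA whose highest count passed the threshold of the study's methods (AGO2) or that reached 100 RPM (bovine), with the SE as the log2 fold change over the square root of F. DESeq2 1.42.0 was an alternative, as the study used it for AGO2. Other alternatives were the scaling, the filter, the matching of species and each library left out. Ratios were compared with exact permutation tests (SciPy 1.17.1). Passenger to guide ratios had 0.5 counts added to each arm, and differences between the libraries of a group 0.5 RPM. The guide was the arm with more counts in mouse, and a bovine comparison asked 100 RPM of the passenger in a library. Sample numbers follow the order of the records, and equal numbers are not stated to mark 1 mouse. A fit of AGO2 and mouse with the sample number as a block was added after the data were seen. In the cell lists, mouse miR-126a, miR-145a and miR-1a and bovine miR-451 stand for miR-126, miR-145, miR-1 and miR-451a.

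The members and lists were chosen with earlier results of these data known. The miRNA named are the members, the 5 most like each guide arm, the list of NF-kB and innate signalling, predicted miRNA with the miR-146 seed, marker lists and the lowest in bovine. A list of 3 muscle miRNA summed to 27.9 to 213 RPM in mouse and AGO2, with 1 at 0 in mouse sample 2, and to 727 and 782 RPM in bovine.

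On simulated counts, edgeR recovered 64 of 100 miRNA changed by 2 on the log2 scale and 93 of 99 changed by 4, with 2 false calls of 100, for AGO2 against mouse (299 miRNA), and 48 of 50 and 48 of 48, with 3 false calls of 49, for bovine against mouse (147 miRNA). The simulation took its means from mouse, and its spread from the trend over all miRNA, alike in both groups. Rises and falls were about equal in number. These rates may therefore not hold for the real counts.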

Additional observations from a re-analysis of the deposited data

Results flagged for a closer look

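A miRNA predicted by the authors in mouse, mmu-7_38551-3p, lies outside the rule for miR-146 but carries its seed, and it was higher in both AGO2 libraries than in the mouse libraries. Its 17 bases, with the seed in capitals, are the first 17 of all 4 lines of the miR-146 5p arm.
mmu-7_38551-3p: uGAGAACUgaauuccau
It had 10.5 RPM (7.73 to 14.2, 95% Wilson interval, 41 reads) in AGO2 sample 1 and 57.5 RPM (51.3 to 64.5, 290 reads) in AGO2 sample 2. In mouse samples 1 and 2 it had 1.61 RPM (0.978 to 2.66, 15 reads) and 3.93 RPM (2.80 to 5.52, 33 reads). The AGO2 libraries differed more from each other than AGO2 sample 1 did from mouse sample 2, so the size of the difference rests on AGO2 sample 2. The predicted precursor lies on the plus strand of GRCm38 at chr7:5367599-5367653, in no gene of GENCODE, with a miRDeep2 score of 0, 380 reads in all and 0 reads of the opposite arm. The study's methods ask for a score above 0. How this precursor came to be counted is not given in the sources used here. A read of these 17 bases cannot be assigned by its sequence to that precursor, to miR-146a or to miR-146b. In the comparison of AGO2 with mouse its log2 fold change was 3.79 (SE 1.44, adjusted p = 0.0555, edgeR's quasi-likelihood test), which missed the threshold. The predicted miRNA passed the count filter only through AGO2 sample 2, so it had to be high there to be tested.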

How the results depend on the processing

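With 9 alternatives tried for each, miR-146b-5p, miR-146b-3p and the summed 5p arms stayed called lower in bovine, at -8.38 to -6.87, -6.26 to -5.34 and -6.64 to -5.84 on the log2 scale. miR-146a-5p between bovine and mouse turned with the mouse library left out, from -0.82 without sample 1, the only setting in which it passed the test, to 0.0192 without sample 2. In AGO2 the members stayed short of the threshold under the 9 alternatives other than the block given last, with adjusted p from 0.0871 to 0.820 for miR-146b-5p, 0.177 to 0.672 for miR-146a-5p and 0.366 to 0.968 for miR-146b-3p. The 4 ratios kept their direction with 1 count added and with each library left out. In the latter the log2 difference of miR-146b-5p to miR-146a-5p ran from -7.76 to -6.61 in bovine and from 0.05 to 0.56 in AGO2, and that of the arms from -2.38 to -1.19 and from -1.75 to -0.55.

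Counts over all miRNA moved more. Without the filter, 29 miRNA were called higher in AGO2 in place of 46, and 74 higher and 79 lower in bovine in place of 41 and 42. With species matched by identical sequence, 91 miRNA were tested and 19 were higher and 20 lower. With libraries left out, miRNA lower in AGO2 numbered 21 to 33, and bovine calls 27 to 59 higher and 21 to 52 lower. The low ends were reached without mouse sample 1 (21) and AGO2 sample 1 (23), and without bovine sample 2 (27 higher, 22 lower) and bovine sample 1 (21 lower). The lone library of a group was then assumed to vary like the other group. DESeq2 called 117 of 299 in AGO2 in place of 83. Other scalings shifted the median over all miRNA by -0.15 and 0.11 in AGO2 and by 0.29 and -0.03 in bovine. By identical sequence neither 5p arm could be compared (22 against 24 nt), miR-146b-3p was not paired in the study's list, and miR-146a-3p had no value in any setting.

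The labels give no replicate numbers. The study numbers the mouse and AGO2 libraries 1 and 2 without saying that equal numbers mark 1 mouse. The differences between samples 2 and 1 had a correlation of 0.57 between mouse and AGO2, over 139 miRNA that are not independent. With the sample number as a block, chosen after seeing the data and leaving 1 residual degree of freedom per miRNA, edgeR called 121 of 299 in AGO2 in place of 83 (60 higher, 61 lower), 79 of them in both fits. miR-146b-5p, at -0.62, then passed the test (adjusted p = 0.0378, edgeR), while miR-146a-5p at -0.93 (adjusted p = 0.154) and miR-146b-3p at 0.52 (adjusted p = 0.317) did not. For bovine and mouse no paired analysis was possible because they share no animals. Depth was no limit for the 5p arms. In bovine miR-146b-3p rested on 77 and 121 reads.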
